A study of Mus musculus with 27 samples.

Results

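Livers of mice that had eaten for 30 min after a fast were compared with livers of mice that had been given food that they could sense but not reach for the same 30 min. The comparison takes in 6 of the 27 libraries of the series. The refed group (3 libraries) had fasted for 16 h and was then given food for 30 min. The caged food group (3 libraries) had fasted for 16 h and then had food placed in a small cage for 30 min, so that it could be sensed and not eaten. The fasted group (3 libraries), which had fasted for 16 h and received no food, is given beside them for its level. All 3 groups were wild type and carry the strain label C57/BLN6, age and sex are not given in the labels used here, and each library is labelled as a separate biological replicate of liver. The other 18 libraries are refed and caged food groups of 60, 120 and 240 min.

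Feeding after a fast sends glucose, amino acids and insulin to the liver. Insulin signalling through the kinase AKT keeps the transcription factor FOXO1 out of the nucleus, which lowers genes of glucose release and of the fasted state, while genes of glucose uptake and fat storage are raised more slowly. The sight and smell of food start part of this programme through the brain before any nutrient arrives. Within minutes of many stimuli, cells also transcribe immediate early genes, which encode short-lived transcription factors such as NR4A1, JUN and ATF3 and need no new protein for their induction.

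The labelled tissue fitted its markers, since all 6 libraries held the hepatocyte genes of albumin (Alb) at 3054474 or more normalised read counts, and totals of the adipose and muscle markers were at most 27. The 6 libraries had totals of 41867490 to 45340714 normalised read counts, an estimated 37.8 to 50.9 M assigned reads, and 20042 to 21068 genes above 0. Across genes, which are not independent replicates, log2 values of libraries of the same group had a Pearson's r of 0.985 to 0.989. A pair of libraries held RNA of the pancreas. The summed level of the 12 pancreas markers was 6408 in refed replicate 1 and 357 and 385 in the other refed libraries, against 327, 710 and 437 in the caged food libraries, and 312 to 551 in the other 21 libraries. The trypsinogen gene Prss2 was at 452 in refed replicate 1 and at 14 in caged food replicate 2, and at 0 in the other 4 libraries. Caged food replicate 1 stood apart in other markers. The summed level of the 12 sinusoidal endothelial markers was 36242, 38118 and 34836 in refed livers, against 49492, 37728 and 34202 in caged food livers, and that of the stellate cell markers was 22255, 24768 and 27141 in refed livers, against 35285, 23982 and 24689 in caged food livers. The endothelial receptor gene Lyve1 was at 1613, 2432 and 2302 in refed livers and at 6726, 1538 and 1732 in caged food livers. The summed level of the leukocyte markers was 746, 791 and 561 in refed livers, against 1173, 707 and 765 in caged food livers. All 11 leukocyte markers tested had a difference below 0. The groups did not overlap for 2 of the 11, beside 11.7% of all genes tested. The markers had a median of -0.62 on the log2 scale. This median was -0.39 without caged food replicate 1 and -0.90 without the pair holding pancreatic RNA. In these 4 lists 0 markers passed limma. An unadjusted p under 0.05 held for 0 of 10 pancreas, 2 of 12 endothelial, 1 of 12 stellate and 1 of 11 leukocyte markers. Over all genes tested that share was 7.53%. The part of these cells in the differences below was not tested. In these whole-tissue samples fewer cells of a type and less RNA per cell cannot be told apart.

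The promoters of 5 called genes are shown here so that the motifs searched can be read in them, and these 5 were chosen after their values and motif matches were seen. Each is the stretch from 250 bases before the RefSeq transcript start (GRCm38.p6) through the first 20 bases from it. Capitals mark the short form TGACG of the cAMP response element in Nr4a1 (4 matches), the STAT binding motif TTCNNNGAA in Cish (2 matches), the heat shock element core GAANNTTC in Hspa1b and the full cAMP response element TGACGTCA in Arl4d. Motifs were searched on both strands, so a match may read as its complement, and the full element contains the short form. The window of Angptl8 held none of the 8 motifs searched. Positions are chr9:21835260-21835529 (plus strand) for Angptl8, chr15:101266596-101266865 (plus) for Nr4a1, chr9:107296409-107296678 (plus) for Cish, chr17:34959219-34959488 (minus) for Hspa1b and chr11:101665291-101665560 (plus) for Arl4d.
Angptl8: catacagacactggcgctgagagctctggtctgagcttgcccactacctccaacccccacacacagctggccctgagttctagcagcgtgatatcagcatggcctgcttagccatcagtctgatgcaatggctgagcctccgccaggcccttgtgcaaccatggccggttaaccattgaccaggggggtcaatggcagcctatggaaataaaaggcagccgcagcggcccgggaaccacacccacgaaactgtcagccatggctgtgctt
Nr4a1: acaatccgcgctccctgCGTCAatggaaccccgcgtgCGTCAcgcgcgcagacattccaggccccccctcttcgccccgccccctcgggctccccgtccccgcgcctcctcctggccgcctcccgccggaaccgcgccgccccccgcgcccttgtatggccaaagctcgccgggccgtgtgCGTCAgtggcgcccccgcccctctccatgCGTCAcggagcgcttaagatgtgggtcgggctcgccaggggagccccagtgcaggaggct
Cish: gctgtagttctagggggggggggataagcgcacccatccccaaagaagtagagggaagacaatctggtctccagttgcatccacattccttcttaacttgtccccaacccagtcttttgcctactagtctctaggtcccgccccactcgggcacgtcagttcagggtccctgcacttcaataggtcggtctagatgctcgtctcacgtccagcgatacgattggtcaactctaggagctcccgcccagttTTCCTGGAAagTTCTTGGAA
Hspa1b: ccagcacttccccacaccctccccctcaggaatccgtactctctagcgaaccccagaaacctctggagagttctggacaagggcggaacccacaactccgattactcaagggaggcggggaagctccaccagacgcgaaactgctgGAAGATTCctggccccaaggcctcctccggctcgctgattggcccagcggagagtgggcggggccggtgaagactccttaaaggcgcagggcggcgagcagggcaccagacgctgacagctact
Arl4d: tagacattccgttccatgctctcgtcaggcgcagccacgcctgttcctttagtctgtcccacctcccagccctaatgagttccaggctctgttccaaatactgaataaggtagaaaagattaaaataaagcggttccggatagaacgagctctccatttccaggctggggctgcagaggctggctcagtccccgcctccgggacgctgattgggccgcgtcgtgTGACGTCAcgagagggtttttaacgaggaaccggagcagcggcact

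Of the 44 genes that differed between refed and caged food livers, 32 had a RefSeq window of 300 bases (250 before the start and 50 after), 24 of the 33 higher and 8 of the 11 lower ones. The short form TGACG was present in 12 of 24 windows of higher genes and in 3 of 8 of lower genes, against 23.0% of the 27025 genes with a window. The full element was in 0 of 24 and in 1 of 8 (Arl4d), against 2.03%. The heat shock element core was in 6 of 24 (Hspa1b, Hsph1, Dnaja1, Jun, Cish and Zfp809) and in 1 of 8 (Depp1), against 9.04%. In the printed stretch of Cish this core shares bases with both marked STAT matches. The STAT motif was in 4 of 24 and 1 of 8 (9.55% of all genes), the AP-1 motif TGANTCA in 1 of 24 and 0 of 8 (8.97%), and the E-box CACGTG in 4 of 24 and 1 of 8 (8.09%). The FOXO motif TGTTTAC was in 2 of 24 (Foxa1 and Brd2) and in 2 of 8 (Txnip and Bbc3), against 4.05%, and the core TGACGTGG of the unfolded protein response element was in none of the 32 (0.714% of all genes). The shares are over all genes with a window, including genes not tested here. These are counts of letters in a window and are not sites shown to be bound.

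After 30 min few genes separated eating from sensing food. Of 15932 genes tested, 33 rose (0.207%) and 11 fell (0.069%) in refed relative to caged food livers, 44 in all (0.276%), by limma at a Benjamini-Hochberg adjusted p under 0.05. At an unadjusted p under 0.05 there were 1199 genes (7.53%), 816 higher (5.12%) and 383 lower (2.4%). In all of the 44 called genes the 3 libraries of one group lay beyond the 3 of the other, which was also so for 1870 genes over the whole table (11.7%). Protein-coding genes made up 36 of the 44. The number called changed with single libraries and was lower without any 1 of them. It was 30, 8 and 15 without refed replicate 1, 2 and 3, and 25, 31 and 21 without caged food replicate 1, 2 and 3, and 21 without the pair of libraries holding pancreatic RNA. These totals can include genes outside the 44. Of the 44 themselves, 25, 8 and 15, then 22, 24 and 19, and 14 without the pair stayed called. All 44 kept their sign under the 15 alternatives. Because their groups did not overlap, leaving out libraries could not turn a sign, so this count is no support. Of the 44, 6 were called in each alternative, among them Angptl8, the transcript B430119L08Rik, Gapdh, Brd2 and Arl4d. Below, a difference is refed minus caged food on the scale log2(normalised read count + 1), with its standard error from limma, and adjusted p-values are over all genes tested.

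**Figure D1:**
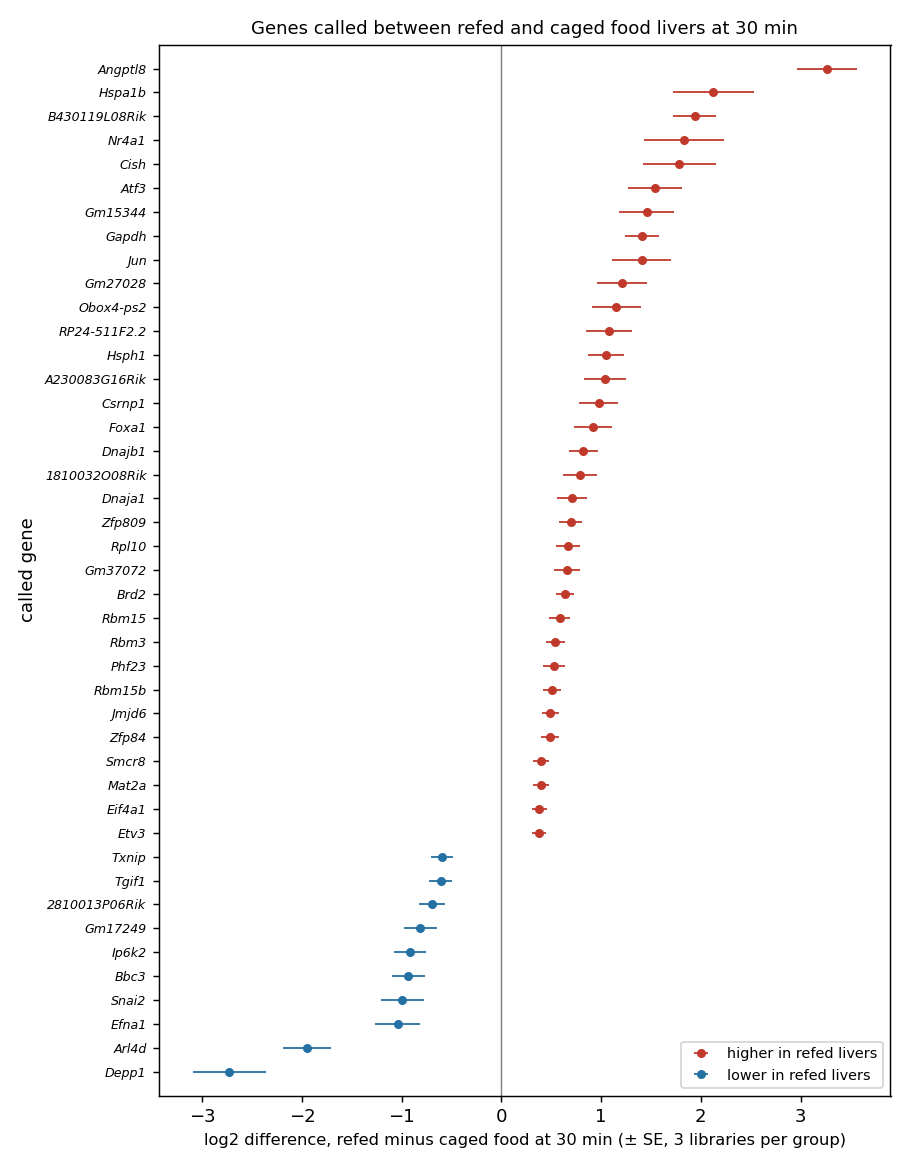
Log2 difference of refed minus caged food livers at 30 min (x axis) for 43 of the 44 called genes (y axis), with standard errors from limma and 3 libraries per group. The higher genes run up to 3.27 for Angptl8, and the lower ones down to -2.73 for Depp1.

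The largest change among called genes was that of Angptl8, a secreted liver and fat protein that restrains lipoprotein lipase in some tissues after meals. It is listed in the table under the older name Gm6484 (ENSMUSG00000047822, chromosome 9, 21835510 to 21837347, plus strand of GRCm38), which the rule for named genes passes over, so it was chosen after its values were seen. Angptl8 stood at 3889, 6548 and 5336 normalised read counts in refed livers, against 447, 716 and 475 in caged food livers, and 961, 657 and 853 in fasted livers. Every refed library was above every caged food and fasted one, and the caged food and fasted libraries overlapped. The difference was 3.27 ± 0.30 (9.62-fold, 95% interval 2.64 to 3.89, adjusted p = 3.01e-06). Angptl4, the relative that restrains lipoprotein lipase in fasting and is a target of PPAR-alpha, lay the other way and did not pass. It was at 3655, 3741 and 4011 in refed livers, against 5226, 7490 and 9232 in caged food livers and 7668, 6222 and 4377 in fasted livers, a difference of -0.91 ± 0.22 (adjusted p = 0.115).

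**Figure D2:**
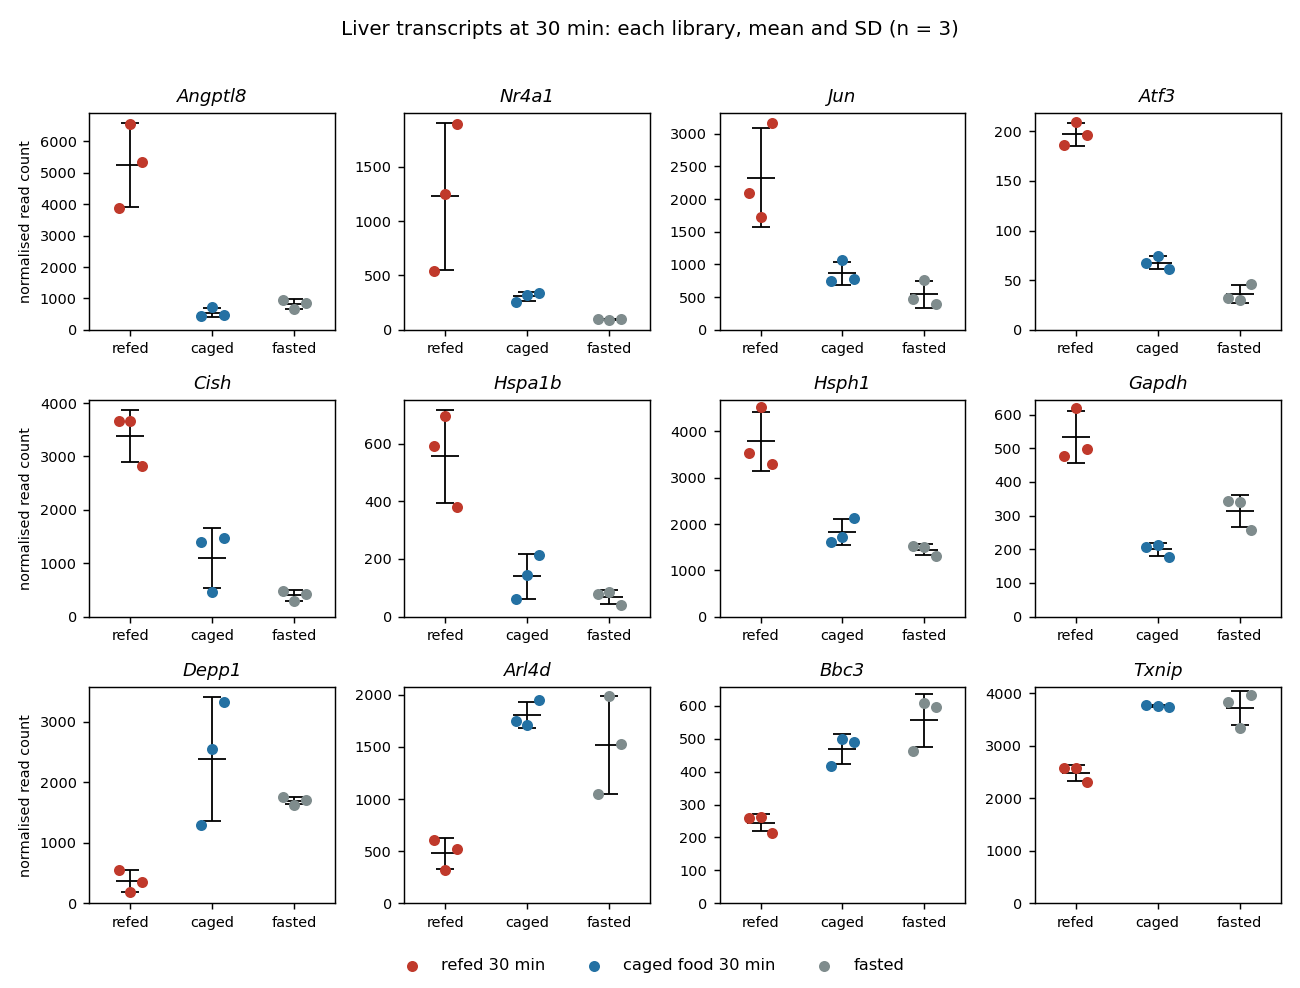
Normalised read counts (y axis, linear and starting at 0) of 12 genes in each refed, caged food and fasted library, with the mean and SD (n = 3). For Angptl8 the refed libraries lie at 3889 to 6548 against 447 to 716 with caged food, and for Txnip at 2315 to 2584 against 3741 to 3776.

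Some immediate early genes rose after eating, among them Nr4a1 and Atf3. In both of these immediate early genes the caged food libraries all lay above the fasted ones. That difference did not pass limma (adjusted p = 0.243 for Nr4a1 and 0.364 for Atf3). Nr4a1, an orphan nuclear receptor gene of this class (ENSMUSG00000023034, chromosome 15, 101254269 to 101274795, plus strand), was at 542, 1253 and 1889 in refed livers, against 258, 323 and 341 in caged food livers and 96, 94 and 96 in fasted livers. The refed libraries did not overlap the caged food ones, and differed among themselves by more than the caged food ones did. Refed minus caged food, Nr4a1 differed by 1.83 ± 0.40 (adjusted p = 0.0486). Against the shared fasted group Nr4a1 differed by 3.50 ± 0.40 in refed and 1.67 ± 0.40 in caged food livers. Jun, a subunit of the transcription factor AP-1 (ENSMUSG00000052684, chromosome 4, 95049034 to 95052222, minus strand), was at 2092, 1722 and 3170 in refed livers, against 740, 1069 and 775 in caged food livers and 465, 766 and 388 in fasted livers. The difference of Jun was 1.41 ± 0.30 (adjusted p = 0.0361). Atf3, a stress-induced partner of JUN, had 186, 209 and 196 in refed livers, against 67, 74 and 61 in caged food livers and 32, 30 and 46 in fasted livers. The libraries of each group lay close together, and the difference of Atf3 was 1.54 ± 0.27 (adjusted p = 0.0102). Csrnp1, a nuclear protein gene of the same early class, was at 1830, 1367 and 1229 in refed livers, against 1102, 601 and 607 in caged food livers (0.98 ± 0.19, adjusted p = 0.0264).

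Fos, the usual partner of JUN, showed no such step. It was at 74, 95 and 113 in refed livers, against 150, 70 and 68 in caged food livers and 30, 36 and 36 in fasted livers. The groups overlapped, and the difference of 0.05 ± 0.42 had a 95% interval of -0.81 to 0.91. In the list of AP-1 factors and Atf3, 2 of 12 genes rose and 0 fell, beside 0.207% and 0.069% of all genes tested. Both of these had been seen to rise when the list was drawn up. The list had a median of 0.20, beside 0.0014 over all genes tested. In the wider list of Nr4a, Egr and other immediate early genes, 1 of 34 rose and 0 fell, with a median of 0.0056. Of these 34, 10 were higher and 1 lower at an unadjusted p under 0.05, beside 5.12% and 2.4% of all genes tested. The relatives of Nr4a1 were at 2.27 (Nr4a3) and 1.35 (Nr4a2) and were not called. Ier5 (0.63 ± 0.15, adjusted p = 0.0902) and Ier2 (0.42 ± 0.12, adjusted p = 0.191) were higher without passing, and the antiproliferative gene Btg1 was lower (-0.53 ± 0.15, adjusted p = 0.188). These calls were not stable when 1 library was left out. That of Nr4a1 was lost without refed replicate 2 (adjusted p = 0.309) or 3 (0.318) or without caged food replicate 1 (0.232), 2 (0.0998) or 3 (0.123). With all libraries kept, Nr4a1 was also not called with a replicate block (0.0615) or without the filter on low values (0.0848). The same was so with scaling factors from the 6 libraries of 30 min (0.0514). Jun was not called without the filter (0.0607). The call of Jun was lost without any of the refed libraries (0.0973, 0.0742 and 0.235) or caged food replicate 1 (0.205) or 3 (0.169), and that of Atf3 without refed replicate 2 (0.0757) or 3 (0.0506) or caged food replicate 3 (0.0590). Csrnp1 was lost without refed replicate 1 (0.161) or 2 (0.0959) or caged food replicate 2 (0.116) or 3 (0.175), and without the pair holding pancreatic RNA Csrnp1 (0.335), Jun (0.0862) and Atf3 (0.0636) were not called.

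Cish, an inhibitor of cytokine signalling that STAT5 induces after growth hormone and similar signals, rose as well (ENSMUSG00000032578, chromosome 9, 107296026 to 107302784, plus strand). It was at 3665, 3670 and 2813 in refed livers, against 1392, 455 and 1463 in caged food livers and 487, 287 and 423 in fasted livers. The refed libraries were all above the others, and caged food replicate 2 lay within the fasted range. The difference of Cish was 1.78 ± 0.37 (adjusted p = 0.0309). It was the only 1 of 19 genes to pass in the list of SOCS genes and STAT5 targets (median 0.19), beside 0.276% of all genes tested. Socs3, a related inhibitor, was at 1994, 1867 and 1065 in refed livers, against 1156, 477 and 751 in caged food livers (1.09 ± 0.37, adjusted p = 0.375). The 2 groups overlapped for Socs3. Onecut1, the hepatocyte transcription factor also known as HNF6, was at 814, 1640 and 668 in refed livers, against 659, 355 and 452 in caged food livers (1.02 ± 0.31, adjusted p = 0.265), and Pim1, a kinase gene induced by STAT factors, lay the other way, at 332, 326 and 193 in refed livers, against 337, 353 and 393 in caged food livers (-0.39 ± 0.18, adjusted p = 0.644). The call of Cish was lost without refed replicate 1 (0.117), 2 (0.207) or 3 (0.0877), without caged food replicate 2 (0.137) and without the pair holding pancreatic RNA (0.292).

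Of the 29 pathway lists, that of cytosolic heat shock proteins held the most rises. The lists were drawn up with earlier results of these data known, so this rank is a description and not a test. Of the heat shock list, 5 of 26 genes rose and 0 fell, beside 0.207% and 0.069% of all genes tested. At an unadjusted p under 0.05, 10 were higher and 1 lower, beside 5.12% and 2.4% of all genes tested. The median was 0.22, beside 0.0014 over all genes tested. Hspa1b, an inducible HSP70 (ENSMUSG00000090877, chromosome 17, 34956436 to 34959238, minus strand), was at 594, 696 and 379 in refed livers, against 60, 145 and 213 in caged food livers and 77, 85 and 40 in fasted livers (2.12 ± 0.41, adjusted p = 0.0170). The lowest refed library was above the highest caged food one. Reads of Hspa1b may be shared with the near-identical Hspa1a, which was at 1.47 and not called. Hsph1, a nucleotide exchange factor of HSP70, was at 3535, 4519 and 3306 in refed livers, against 1618, 1723 and 2134 in caged food livers and 1535, 1495 and 1315 in fasted livers (1.05 ± 0.18, adjusted p = 0.00842). The HSP40 co-chaperone gene Dnajb1 was at 2037, 2191 and 1806 in refed livers, against 1007, 1151 and 1254 in caged food livers (0.82 ± 0.15, adjusted p = 0.0109). Its relative Dnaja1 was at 3733, 4120 and 3606, against 1928, 2579 and 2559 (0.71 ± 0.15, adjusted p = 0.0345). The fifth member, Rbm3, encodes an RNA-binding protein known for its induction by cold and is not a chaperone. It was at 1031, 1048 and 1083 in refed livers, against 784, 748 and 647 in caged food livers (0.54 ± 0.10, adjusted p = 0.0102). Cirbp, the other cold-induced gene of the list, had the lowest value in it (-0.32) and was not called.

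The heat shock count moved with single libraries. It was 2, 0 and 3 of 26 without refed replicate 1, 2 and 3, then 2, 4 and 3 without caged food replicate 1, 2 and 3, and 0 without the pair holding pancreatic RNA. Hsph1 lost its call without refed replicate 2 (adjusted p = 0.0775), Hspa1b without refed replicate 1 (0.0849) or 2 (0.170) or caged food replicate 1 (0.167), and Dnajb1 without refed replicate 1 (0.0504) or 2 (0.108) or caged food replicate 1 (0.0962). Dnaja1 was called in none of the 6 fits that left out 1 library (0.0516 to 0.269), and Rbm3 was lost without refed replicate 2 (0.0742) or 3 (0.0739) or caged food replicate 3 (0.0752). Against the shared fasted group Hsph1 differed by 1.38 ± 0.18 in refed and 0.33 ± 0.18 in caged food livers, and Dnaja1 by 0.67 ± 0.15 in refed and -0.04 ± 0.15 in caged food livers.

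No chaperone of the endoplasmic reticulum (ER) passed at this time. Of 26 ER chaperones and folding factors, 0 passed limma and 1 was higher at an unadjusted p under 0.05, with a median of 0.17. Over all genes tested 0.276% passed and 5.12% were higher at the unadjusted cut-off. Hspa5, which encodes the main ER chaperone BiP (ENSMUSG00000026864), was at 31613, 36470 and 26939 in refed livers, against 24156, 25360 and 25047 in caged food livers and 21580, 29690 and 27790 in fasted livers. Its difference of 0.34 ± 0.22 had a 95% interval of -0.12 to 0.79. Sdf2l1, an ER-resident folding factor, was at 1007, 983 and 554 in refed livers, against 531, 549 and 712 in caged food livers (0.47 ± 0.36, interval -0.28 to 1.21), and Creld2, an ER stress-induced gene, at 1407, 1559 and 1063 in refed livers, against 977, 1087 and 1114 in caged food livers (0.33 ± 0.33, interval -0.36 to 1.01). In both of these the refed library of replicate 3 lay within the caged food range. Among 30 genes of the unfolded protein response, ER-associated degradation and ER export, 0 passed (median 0.09). At an unadjusted p under 0.05, 3 of these were higher, beside 5.12% of all genes tested. Xbp1, a transcription factor that drives ER chaperone genes, was at 11203, 10936 and 9119 in refed livers, against 8394, 8220 and 9511 in caged food livers (0.26 ± 0.11, adjusted p = 0.566).

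**Figure D3:**
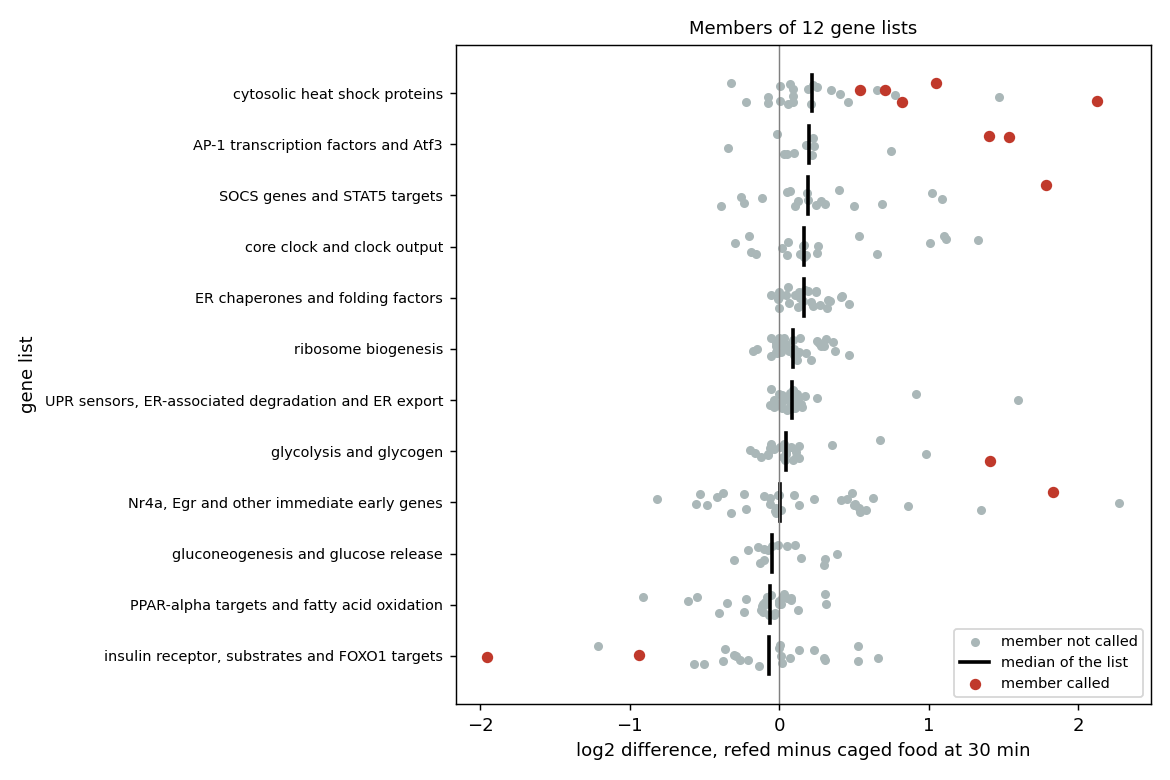
Log2 differences of refed minus caged food livers at 30 min (x axis) for members of 12 gene lists (y axis; 1 member of the glycolysis list is not drawn), each point 1 gene and each bar the list's median. The medians lie between -0.07 and 0.22, and the 5 called heat shock members lie between 0.54 and 2.12.

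Among genes of glucose use, Gapdh rose. Gapdh, the glycolytic dehydrogenase gene (ENSMUSG00000057666, chromosome 6, 125161715 to 125166467, minus strand), was at 478, 621 and 499 in refed livers, against 208, 214 and 176 in caged food livers and 342, 341 and 258 in fasted livers. The refed libraries lay above and the caged food libraries below all 3 fasted ones. The difference of Gapdh was 1.41 ± 0.17 (adjusted p = 7.1e-05) and was called in all 15 alternatives. Gapdh has processed copies in the genome, so the share of its reads that was assigned is uncertain. Ppp1r3b, which targets protein phosphatase 1 to glycogen, was at 10008, 11769 and 16044 in refed livers, against 5927, 6377 and 6453 in caged food livers (0.98 ± 0.36, adjusted p = 0.446). Pfkfb3, a maker of the glycolytic activator fructose 2,6-bisphosphate, was at 903, 792 and 691 in refed livers, against 481, 413 and 610 in caged food livers (0.67 ± 0.24, adjusted p = 0.436). Of the 25 genes for glycolysis and glycogen, 1 rose and 0 fell, and 4 were higher at an unadjusted p under 0.05, with a median of 0.04. Over all genes tested 0.207% rose, 0.069% fell and 5.12% were higher at the unadjusted cut-off.

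Foxa1, Brd2, Zfp809 and other protein-coding genes also rose. Foxa1, a pioneer transcription factor of hepatocytes (ENSMUSG00000035451), was at 1623, 1834 and 1478 in refed livers, against 743, 820 and 1066 in caged food livers and 743, 794 and 921 in fasted livers (0.92 ± 0.19, adjusted p = 0.0336). Brd2, a bromodomain protein that binds acetylated histones, was at 9975, 10258 and 10690 in refed livers, against 6253, 7278 and 6387 in caged food livers and 5689, 5581 and 5925 in fasted livers (0.64 ± 0.09, adjusted p = 4.9e-04). Its libraries were close within each group and it was called in all alternatives. Zfp809, a zinc finger protein that silences retroviral elements in the mouse, was at 1220, 1185 and 1238 in refed livers, against 635, 826 and 805 in caged food livers (0.69 ± 0.11, adjusted p = 0.00558). Rbm15 (0.59 ± 0.10) and Rbm15b (0.51 ± 0.09), relatives that guide the enzyme adding N6-methyladenosine to RNA, both rose. Rbm15 was at 702, 841 and 812 in refed livers, against 536, 561 and 471 in caged food livers, and Rbm15b at 1288, 1288 and 1214 in refed livers, against 954, 906 and 811 in caged food livers. Brd2, Rbm15 and Rbm15b lie outside the rule for named genes and were chosen after their values were seen. The same holds for the remaining protein-coding rises named here, which were between 0.38 and 0.67. They were Rpl10 (a ribosomal protein), Phf23, Jmjd6 (an oxygenase that acts on splicing factors), the zinc finger gene Zfp84, Smcr8 (an autophagy regulator that partners C9ORF72), Mat2a (S-adenosylmethionine synthesis), Eif4a1 (the helicase of translation initiation) and Etv3 (an ETS family repressor). Reads of Rpl10 may be shared with its processed copies.

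The call of Foxa1 was lost in 5 of the 6 fits without 1 library (adjusted p = 0.0877 to 0.269; it was kept without caged food replicate 3). Rbm15 was lost without refed replicate 2 (0.0992) or 3 (0.0739) or caged food replicate 3 (0.0752), and Rbm15b without refed replicate 2 (0.0700) or caged food replicate 3 (0.0577). Brd2 and Zfp809 kept their calls in all 6. Phf23 and Eif4a1 were called in 0 of the 6, Mat2a in 1, Zfp84, Smcr8 and Etv3 in 2 each, Rpl10 in 3 and Jmjd6 in 4. Without the pair holding pancreatic RNA the calls of Foxa1 (0.183), Rbm15b (0.0739), Jmjd6 (0.0659), Rpl10 (0.0862), Zfp84 (0.0862), Eif4a1 (0.0958), Mat2a (0.116) and Phf23 (0.177) were lost.

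Of the non-coding rises the largest was B430119L08Rik, annotated as antisense to the abundant liver gene Serpina1c (chromosome 12, 103895897 to 103898784, plus strand). It was at 877, 895 and 1003 in refed livers, against 265, 201 and 261 in caged food livers and 266, 288 and 178 in fasted livers (1.94 ± 0.22, adjusted p = 3.71e-05). The kit kept the strand of the RNA, but the strand setting used in counting is not given in the sources used here, so reads of the antisense transcript and of Serpina1c cannot be told apart. Gm15344 was at 147, 187 and 137 in refed livers, against 58, 57 and 53 in caged food livers (1.46 ± 0.28, adjusted p = 0.0155) and lies within the ER chaperone gene Hsp90b1 on the same strand. The call of Gm15344 was lost without the pair holding pancreatic RNA (0.0958) and in 5 of the 6 fits without 1 library, and kept without refed replicate 1, while B430119L08Rik kept its call in all of these. Both were chosen after their values were seen.

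The largest falls among called genes were those of Depp1 and Arl4d. Depp1, a gene that FOXO factors induce in fasting and that is listed in the table as 8430408G22Rik (ENSMUSG00000048489, chromosome 6, 116650609 to 116652794, plus strand), was at 554, 189 and 352 in refed livers, against 1285, 2546 and 3321 in caged food livers and 1753, 1627 and 1711 in fasted livers. The highest refed library lay below the lowest of the others. The difference of Depp1 was -2.73 ± 0.37 (0.151-fold, adjusted p = 3.98e-04), and the gene was chosen after its values were seen. Arl4d, a small GTPase of the ARF family (ENSMUSG00000034936, chromosome 11, 101665541 to 101667832, plus strand), was at 607, 318 and 521 in refed livers, against 1748, 1715 and 1947 in caged food livers and 1049, 1989 and 1532 in fasted livers. No refed library reached the lowest value of another group, and the difference of Arl4d was -1.95 ± 0.24 (adjusted p = 8.77e-05). Bbc3, which encodes the pro-apoptotic protein PUMA and is a target of FOXO factors and of p53, was at 259, 262 and 215 in refed livers, against 418, 500 and 489 in caged food livers and 464, 608 and 597 in fasted livers (-0.93 ± 0.17, adjusted p = 0.0102). Txnip, an inhibitor of thioredoxin and of glucose uptake, was at 2584, 2574 and 2315 in refed livers, against 3776, 3755 and 3741 in caged food livers and 3830, 3349 and 3968 in fasted livers (-0.59 ± 0.11, adjusted p = 0.0109). For Txnip and Arl4d the caged food libraries differed by less among themselves than the fasted ones did.

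In the list of the insulin receptor, its substrates and FOXO1 targets 2 of 24 genes fell and 0 rose, beside 0.069% and 0.207% of all genes tested. The 2 were Arl4d and Bbc3, both put in the list with their fall known. At an unadjusted p under 0.05, 6 of the 24 were lower and 3 higher, beside 2.4% and 5.12% of all genes tested. The median of the list was -0.07. Igfbp1, an insulin-repressed binding protein of insulin-like growth factors, was at 5304, 2768 and 6505 in refed livers, against 14412, 7363 and 11101 in caged food livers and 3219, 6147 and 3216 in fasted livers. The refed libraries lay below the caged food ones and overlapped the fasted ones, while the caged food libraries all lay above the fasted ones. The lower refed level is thus relative to caged food and not to the fasted livers. The difference of -1.21 ± 0.57 did not pass (95% interval -2.38 to -0.03, adjusted p = 0.645). Irs2, an insulin receptor substrate, was at 958, 664 and 900 in refed livers, against 1341, 1157 and 1201 in caged food livers (-0.57 ± 0.26, adjusted p = 0.616). Trib1, a pseudokinase of lipid metabolism, was at 4874, 4800 and 5199 in refed livers, against 2275, 3726 and 3616 in caged food livers (0.66 ± 0.20, adjusted p = 0.253), and Pik3r1, the regulatory subunit of phosphoinositide 3-kinase, at 4253, 4556 and 4771 in refed livers, against 3365, 3447 and 2651 in caged food livers (0.53 ± 0.14, adjusted p = 0.181).

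The remaining falls belonged to other functions. Ip6k2, an inositol hexakisphosphate kinase, was at 1296, 934 and 1274 in refed livers, against 2170, 2110 and 2272 in caged food livers (-0.92 ± 0.16, adjusted p = 0.00917). Efna1, the ligand ephrin-A1, was at 492, 441 and 445 in refed livers, against 978, 1101 and 785 in caged food livers (-1.04 ± 0.22, adjusted p = 0.0417). Snai2, a zinc finger repressor, was at 76, 69 and 75 in refed livers, against 181, 148 and 118 in caged food livers and 222, 198 and 212 in fasted livers (-0.99 ± 0.21, adjusted p = 0.0400). The caged food libraries of Snai2 lay between the refed and the fasted ones. Tgif1, a homeodomain repressor, was at 539, 429 and 477 in refed livers, against 621, 860 and 736 in caged food livers (-0.61 ± 0.12, adjusted p = 0.0170). Among lower genes that met the other terms of the naming rule and were not called, those of lowest p were Nfkbia, the inhibitor of NF-kB (-0.50 ± 0.12, adjusted p = 0.101), Rcl1, a factor of ribosomal RNA processing (-0.25 ± 0.06, adjusted p = 0.106), and Lrig3, a leucine-rich repeat membrane protein (-0.50 ± 0.13, adjusted p = 0.117), beside Angptl4 above.

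Depp1 and Arl4d kept their calls in all 6 fits without 1 library, and Ip6k2 lost it without refed replicate 2 (adjusted p = 0.0941). Bbc3 lost it without refed replicate 2 (0.0528) or 3 (0.0887) or caged food replicate 2 (0.0516) or 3 (0.0590), and Txnip without refed replicate 2 (0.0700) or 3 (0.0954) or caged food replicate 3 (0.0514). Tgif1 lost it without refed replicate 2 (0.200) or 3 (0.0923) or caged food replicate 2 (0.0998) or 3 (0.0752). Efna1 was called in none of the 6 (0.0614 to 0.257), and Snai2 in 1 of the 6, without caged food replicate 3 (0.0998 to 0.268 in the others). Without the pair holding pancreatic RNA Bbc3 (0.0862), Txnip (0.0787), Tgif1 (0.0833), Efna1 (0.205) and Snai2 (0.177) were not called.

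No enzyme of glucose release passed at this time. Of 15 genes of gluconeogenesis and glucose release 0 passed limma (median -0.05). An unadjusted p under 0.05 held for 0 of these, beside 7.53% of all genes tested. Pck1, the gluconeogenic enzyme (ENSMUSG00000027513), was at 305565, 289945 and 282356 in refed livers, against 281322, 309400 and 316260 in caged food livers and 314013, 345245 and 269632 in fasted livers. The 3 groups overlapped, and the difference of -0.05 ± 0.26 had a 95% interval of -0.59 to 0.50. G6pc, the catalytic subunit of glucose-6-phosphatase, was at 17431, 15185 and 25254 in refed livers, against 21226, 23027 and 25575 in caged food livers (-0.30 ± 0.28, interval -0.88 to 0.27), and the coactivator gene Ppargc1a at 1436, 1723 and 1318 in refed livers, against 1145, 1315 and 965 in caged food livers (0.39 ± 0.22, interval -0.07 to 0.85). Of 30 PPAR-alpha targets and fatty acid oxidation genes 0 passed, with a median of -0.06. At an unadjusted p under 0.05, 2 of these were lower (Angptl4 and Pdk4), beside 2.4% of all genes tested. Pdk4, which shuts pyruvate out of oxidation in fasting, was at 214, 283 and 309 in refed livers, against 464, 366 and 390 in caged food livers (-0.61 ± 0.24, adjusted p = 0.495). Srebf1, which drives fat synthesis, was at 1678, 1592 and 2846 in refed livers, against 2628, 2172 and 1615 in caged food livers (-0.09 ± 0.34), and Pcyt1a, an enzyme of phosphatidylcholine synthesis, at 4803, 4560 and 4707 in refed livers, against 4315, 5376 and 4584 in caged food livers (-0.01 ± 0.09). Of 35 ribosome biogenesis genes 0 passed (median 0.09). At an unadjusted p under 0.05, 7 of these were higher and 1 lower, beside 5.12% and 2.4% of all genes tested. The nucleolar genes Nop56 (0.47 ± 0.13, adjusted p = 0.213) and Rrs1 (0.37 ± 0.10, adjusted p = 0.191) had the lowest p there.

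Clock genes showed no call, but a few had large differences. Of 20 core clock and clock output genes 0 passed (median 0.17). At an unadjusted p under 0.05, 3 of these were higher, beside 5.12% of all genes tested. Bhlhe40, a repressor of the clock loop, was at 2718, 2681 and 3155 in refed livers, against 1704, 1353 and 1005 in caged food livers and 1738, 1681 and 1332 in fasted livers (1.10 ± 0.34, adjusted p = 0.289). Its relative Bhlhe41 was at 311, 188 and 190 in refed livers, against 75, 139 and 66 in caged food livers and 222, 198 and 263 in fasted livers (1.33 ± 0.46, adjusted p = 0.388). The refed libraries were above the caged food ones in both genes, and for Bhlhe41 the caged food libraries also lay below the fasted ones. Per1, a period gene that many stimuli induce, was at 4103, 3880 and 5216 in refed livers, against 3721, 2916 and 2523 in caged food livers (0.53 ± 0.37, interval -0.24 to 1.30).

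Ppp1r10 and Stac3 were among the panel genes whose refed and caged food libraries all lay above the fasted ones, as were Nr4a1, Atf3, Dnajb1 and Fos. Caged food against fasted passed limma for Ppp1r10 (adjusted p = 9.25e-04) and not for Nr4a1 (0.243), Atf3 (0.364) or Dnajb1 (0.682). Ppp1r10, a nuclear regulator of protein phosphatase 1, was at 3657, 3936 and 3347 in refed livers, against 2097, 3335 and 2398 in caged food livers and 1199, 798 and 897 in fasted livers. It differed from the shared fasted group by 1.94 ± 0.18 in refed and 1.43 ± 0.18 in caged food livers, and between those by 0.51 ± 0.18 (95% interval 0.13 to 0.88, adjusted p = 0.433). Stac3, an adaptor protein gene known from muscle, was at 56, 56 and 48 in refed livers, against 61, 69 and 59 in caged food livers and 26, 22 and 19 in fasted livers. Stac3 differed between these 2 groups by -0.24 ± 0.21 (interval -0.66 to 0.19). The fasted group was not matched to 30 min of clock time.

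The small number of calls at 30 min was followed by larger ones. Between refed and caged food livers 1738 genes (10.9%) were called at 60 min, 1797 (11.3%) at 120 min and 4303 (27%) at 240 min. At 240 min 2 libraries carry a title and a treatment label that disagree on the group, and the titles were followed. The change of the difference itself, relative to 30 min, passed limma for 112 genes (0.703%) at 60 min, 298 (1.87%) at 120 min and 1551 (9.74%) at 240 min. Without the pair holding pancreatic RNA these were 48, 146 and 948, without the 2 libraries of disputed label the last was 1303, and without refed replicate 3 they were 58, 196 and 1141. At 60 min the count was also 64 without refed replicate 1 or without caged food replicate 3. Angptl8 was at 3.32 ± 0.30, 2.67 ± 0.30 and 3.52 ± 0.30 at 60, 120 and 240 min beside 3.27 at 30 min. No change from 30 min passed for it (adjusted p = 0.985, 0.619 and 0.783). Nr4a1 was at 0.90 ± 0.40, -0.91 ± 0.40 and -0.37 ± 0.40, and its change from 30 min passed at 120 min (adjusted p = 0.00942) and 240 min (0.0145). Csrnp1 was at 0.25 ± 0.19, -0.64 ± 0.19 and -0.59 ± 0.19 (changes at 120 and 240 min, adjusted p = 0.00184 and 7.8e-04). Cish was at 3.91 ± 0.37 at 60 min and at -0.33 ± 0.37 at 120 min, where the change passed (adjusted p = 0.0325).

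Genes of glucose release and of the ER with no call at 30 min differed later. G6pc was at -3.16 ± 0.28 at 60 min, a change from 30 min that passed limma (adjusted p = 4.18e-04), and Pck1 at -3.17 ± 0.26 at 120 min (2.38e-05). Angptl4 was at -2.85 ± 0.22 at 60 min (change, adjusted p = 0.00233). Hspa5 was at 0.37 ± 0.22 at 60 min and at 1.67 ± 0.22 and 2.04 ± 0.22 at 120 and 240 min, with changes that passed at the later 2 times (adjusted p = 0.0247 and 0.00108). Hsph1 was at 1.97 ± 0.18 at 240 min (change, adjusted p = 0.0209).

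**Figure D4:**
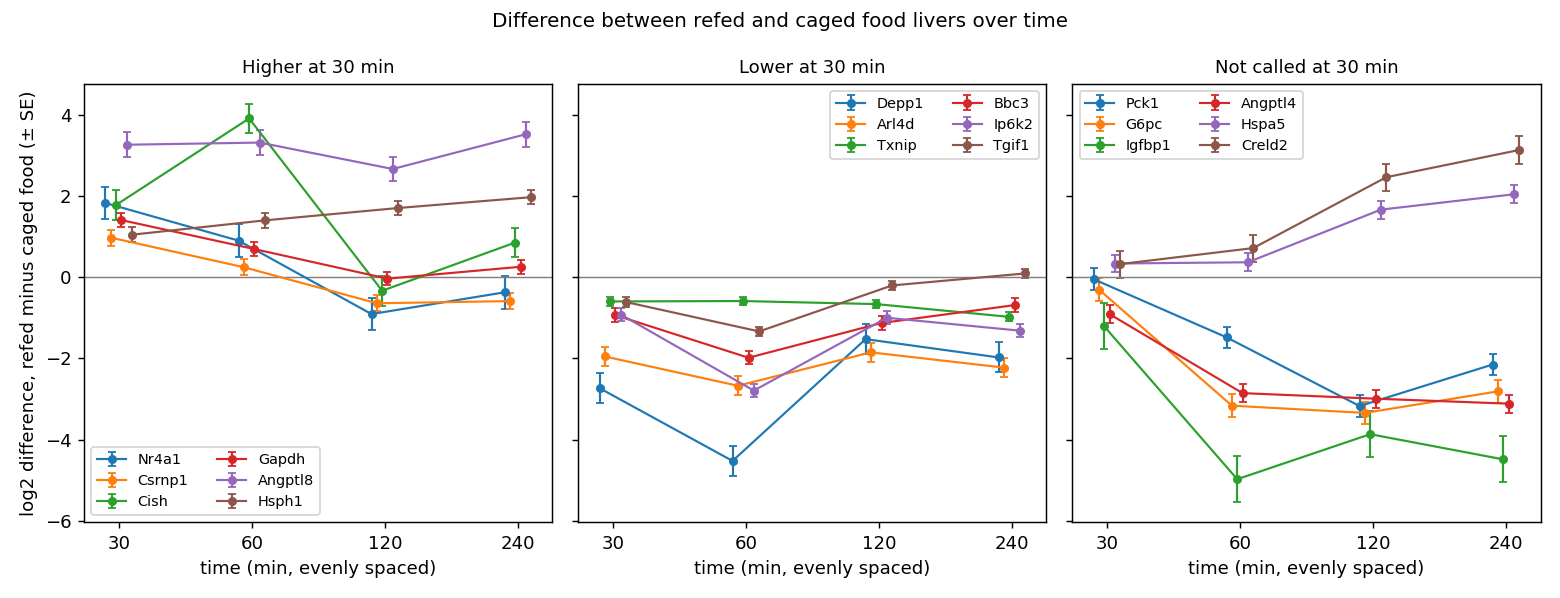
Log2 difference of refed minus caged food livers (y axis, ± standard error from limma, 3 libraries per group) at 30, 60, 120 and 240 min (x axis, evenly spaced) for genes higher, lower or not called at 30 min. Nr4a1 falls to -0.91 at 120 min while Angptl8 stays between 2.67 and 3.52, and Pck1 reaches -3.17 at 120 min.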

How the data were processed

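Liver mRNA was sequenced in 27 libraries (TruSeq stranded protocol, per the labels). Per the submitters' processing notes, the authors aligned reads to mm10 (GRCm38) with STAR 2.4.0a and counted them per gene with featureCounts 1.4.5-p1 of Subread. The deposited values are a score per gene, read counts scaled per library by the authors and rounded to whole numbers, and the scaling method is not given in the sources used here. Scaling and rounding hide the depth, so assigned reads per library were estimated from the spacing of low values. On simulated counts this estimate was off by up to 10.1%. The estimated reads cover counting error only.

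Genes that reached 10 in 3 or more of the 27 libraries were tested on log2(value + 1) with limma 3.58.1 (R 4.3.3, mean-variance trend, 9 group means). P-values were Benjamini-Hochberg adjusted over 15932 genes, with calls under 0.05. The test was checked on simulated data. Of genes changed 1.5-fold, 2-fold and 4-fold there, it called 31 of 67, 48 of 67 and 55 of 66. It also called 4 unchanged genes. A gene not called may therefore still differ. Replicates are labelled biological, with no animal named, so p-values measure the spread between these samples. Replicate numbers did not pair libraries (residual correlations of -0.083, -0.047 and 0.022 at 30 min). Identifiers matched GENCODE M21 for 98.8% of the 45706 genes, which gave coordinates and the names Angptl8 and Depp1. Promoters came from RefSeq (GRCm38.p6).

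Named were the 12 largest rises and up to 12 falls among called genes (8 were called, then 4 of lowest p) with non-overlapping groups and a mean of at least 50, without predicted, clone-named, pseudogene and sex-linked genes, plus a panel and the members of lowest p of lists. A few genes picked by this rule are left out of the text. The members and lists were chosen with earlier results of these data known. Scripts used Python 3.11.15, numpy 2.4.6, pandas 2.3.3, scipy 1.17.1 and matplotlib 3.10.9. The 15 alternatives were other scalings, a pseudocount of 5, no filter, a fit of 6 libraries, quality weights, a replicate block and libraries left out.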

Additional observations from a re-analysis of the deposited data

Results flagged for a closer look

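For genes named above, the refed minus caged food difference at a later time differed from that at 30 min in 39 tests of the change itself (limma, adjusted p between 2.38e-05 and 0.0436). The values below are the later difference minus that at 30 min, on the log2 scale.

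Among genes higher at 30 min, the change was -2.73 at 120 min and -2.20 at 240 min for Nr4a1, -2.11 at 120 min for Cish, and -1.62 and -1.56 at 120 and 240 min for Csrnp1. Gapdh changed by -1.44 and -1.15 and Zfp809 by -0.80 and -0.63 at the same times, and Hsph1 by 0.92 at 240 min.

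Among lower genes, the change at 60 min was -1.05 for Bbc3, -1.87 for Ip6k2 and -0.72 for Tgif1, whose change at 240 min was 0.71.

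Among genes not called at 30 min, changes at 60 min were -0.73 for Nfkbia, -1.95 for Angptl4, -2.86 for G6pc, -3.77 for Igfbp1 and -2.26 for Irs2. At 120 min they were -2.08 for Angptl4, 0.75 for Lrig3, 1.33 for Hspa5, 2.11 for Sdf2l1, 2.14 for Creld2, -3.04 for G6pc, -3.13 for Pck1, -1.96 for Ppargc1a and -2.09 for Per1. At 240 min they were -2.21 for Angptl4, 1.71 for Hspa5, 2.58 for Sdf2l1, 2.81 for Creld2, 0.49 for Xbp1, -2.51 for G6pc, -2.10 for Pck1, -3.28 for Igfbp1, -1.74 for Ppargc1a, 0.97 for Ppp1r10 and -2.23 for Per1.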

How the results depend on the processing

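The number of called genes (44, 33 higher and 11 lower) was 43 to 45 under other scalings and the larger pseudocount. Leaving out 1 library gave 8 to 31 (5 to 25 higher, 3 to 9 lower). It was 21 (17 and 4) without the pair of libraries holding pancreatic RNA, 20 (14 and 6) with only the 6 libraries of 30 min in the fit and 88 (64 and 24) with quality weights per library. Of the 44 themselves, 14 stayed called without the pair, 14 with only the 6 libraries and 43 with quality weights. Among those lost with only the 6 libraries were Nr4a1 (adjusted p = 0.199), Cish (0.234), Hspa1b (0.186), Csrnp1 (0.305) and Etv3 (0.362). Heat shock members called were 5, and 0 to 4 without 1 library, 0 without the pancreatic pair and 2 with only 6 libraries. Genes whose difference changed after 30 min numbered 112, 298 and 1551 at 60, 120 and 240 min. Without 1 library they were 58 to 128, 196 to 295 and 1141 to 1578, without the pancreatic pair 48, 146 and 948, and with quality weights 1080 at 120 min and 2688 at 240 min. Fits that leave out libraries also hold fewer samples, and the cause of these shifts was not tested. A replicate block gave 36 called genes.

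Differences near 0 changed sign. Without 1 library, Fos ranged from -0.15 to 0.42, Srebf1 from -0.36 to 0.0702 and Pcyt1a from -0.0823 to 0.0763. Fos turned to -0.12, -0.15 and -0.09 without caged food replicate 2, caged food replicate 3 and refed replicate 3. Srebf1 turned to 0.0702, 0.0217 and 0.0596 without caged food replicate 1 and refed replicates 1 and 2, and to 0.0471 without the pancreatic pair, and Pcyt1a to 0.0763, 0.0052 and 0.0589 without caged food replicate 2, refed replicate 2 and the pair.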
